A study of Rattus norvegicus with 18 samples.

Results

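The prefrontal medial cortex was compared between 2 rat strains selected for how readily they take ethanol: WHP, with a high preference for it, and WLP, with a low one. The comparison uses the 6 of 18 arrays of the series whose source label names this brain area. The other arrays hold the nucleus accumbens and the hippocampus of the same strains, 6 each, and enter here only where areas are compared. All rats were male and had never been given alcohol. They were caged with their brothers until decapitation, and the labels give no age. RNA was isolated on RNeasy columns, and equal amounts of total RNA from 3 rats made up a pool. Each array is a 2-colour Agilent array, on which a WHP pool in 1 dye and a WLP pool in the other dye compete for the same spots. Every WHP and WLP pool pair was hybridised a second time with the dyes swapped, which gives 3 pool pairs on 6 arrays and n = 3. The labels call the 3 pairs biological replicates. They leave unsaid if a rat gave tissue to pools of more than 1 area. A pool hides the spread between its rats, and the strains differ by selective breeding across the genome, not by 1 known allele.

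The medial prefrontal cortex is the part of the frontal lobe that weighs outcomes and holds back habitual responses. Its excitatory projection neurons, which use glutamate, reach the nucleus accumbens and the midbrain dopamine neurons, and this circuit is a classical site of study for alcohol seeking. In rats never given alcohol, drinking itself does not enter the comparison.

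Ratios are given as log2 of WHP over WLP: 1 unit is a doubling, positive values are higher in WHP and negative values higher in WLP. Each pair's value is the mean of its 2 dye-swapped arrays, and an error is the moderated standard error (SE) of the mean of 3 pairs. A probe passed when limma's adjusted p (Benjamini-Hochberg over all probes tested) was under 0.05. On the prefrontal arrays the median spot signal was 81.4 to 98.2 in green (Cy3) and 133 to 166 in red (Cy5), and 29089 to 31208 spots in green and 31641 to 33087 in red were well above background. Precision is limited by having only 3 pool pairs.

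Marker genes were read first, as a check on the label. Slc17a7, the vesicular glutamate transporter of cortical projection neurons, stood at 4.38 ± 0.23 (SD over 6 arrays) log2 units over the array median, against 1.19 in the accumbens and 5.20 in the hippocampus. Some striatal genes were high as well. Adora2a, the adenosine receptor of striatal projection neurons, was at 2.20 ± 0.41 in the prefrontal arrays, close to 2.49 in the accumbens and above 0.16 in the hippocampus. The dopamine receptor gene Drd1 was below the array median, at -0.19 in the prefrontal arrays, -0.36 in the accumbens and -2.04 in the hippocampus. Drd2, another, was at -0.32, -0.18 and -0.28 in the same order, so it did not separate the areas. The 23 striatum markers averaged 2.97 ± 0.26 (SD, n = 3 pairs) in the prefrontal pools and 2.99 ± 0.31 in the accumbens, against 1.59 ± 0.14 in the hippocampus. The pools labelled prefrontal medial cortex therefore carried striatal transcripts, averaged over the list, at the level of the accumbens pools, next to the cortical ones. All hippocampus arrays were scanned in another session and on other slides than the arrays of both other areas. For the hippocampus, area and scan session thus cannot be told apart. In pooled tissue, fewer cells of a type and less RNA per cell cannot be told apart.

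**Figure D1:**
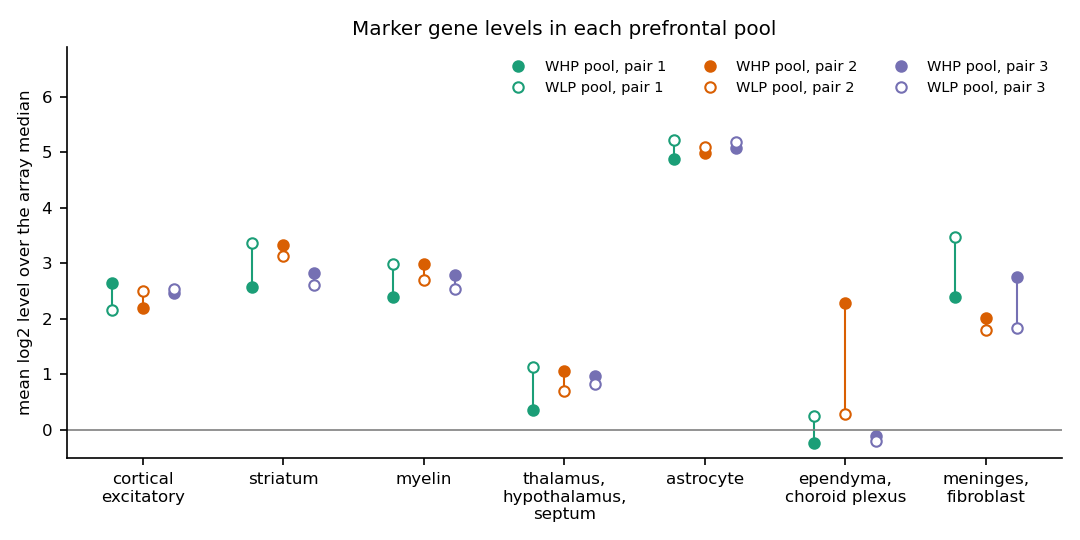
Mean level of 7 marker lists (log2 over the array median, vertical axis) in each of the 6 prefrontal pools, filled for WHP and open for WLP, with a line joining the pools of a pair. Cortical, striatum and myelin markers differ in opposite directions in pair 1 and pair 2, and the WHP pool of pair 2 stands alone at 2.29 for ependyma and choroid plexus markers.

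The 3 pool pairs differed from each other in tissue markers. In pair 1 the striatum markers were at 2.58 in the WHP and 3.36 in the WLP pool, in pair 2 at 3.34 and 3.13, and in pair 3 at 2.83 and 2.60. Cortical excitatory markers ran the other way, at 2.64 and 2.16 in pair 1, 2.20 and 2.51 in pair 2, and 2.47 and 2.53 in pair 3. Ependyma and choroid plexus markers, genes of the cells that line and fill the ventricles, reached 2.29 in the WHP pool of pair 2 and lay between -0.23 and 0.28 in the other 5 pools. Over 28386 probes the ratios of pair 1 and pair 2 correlated at -0.33, those of pair 1 and pair 3 at -0.04 and those of pair 2 and pair 3 at 0.44. The 2 dye-swapped arrays of a pair correlated at 0.72, 0.67 and 0.57 in pairs 1, 2 and 3, and arrays of pairs 1 and 2 with the same dye orientation at -0.32 and -0.16. The dyes are stated in the labels, so the direction was kept. The part of these tissue markers in any single gene's ratio was not tested.

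**Figure D2:**
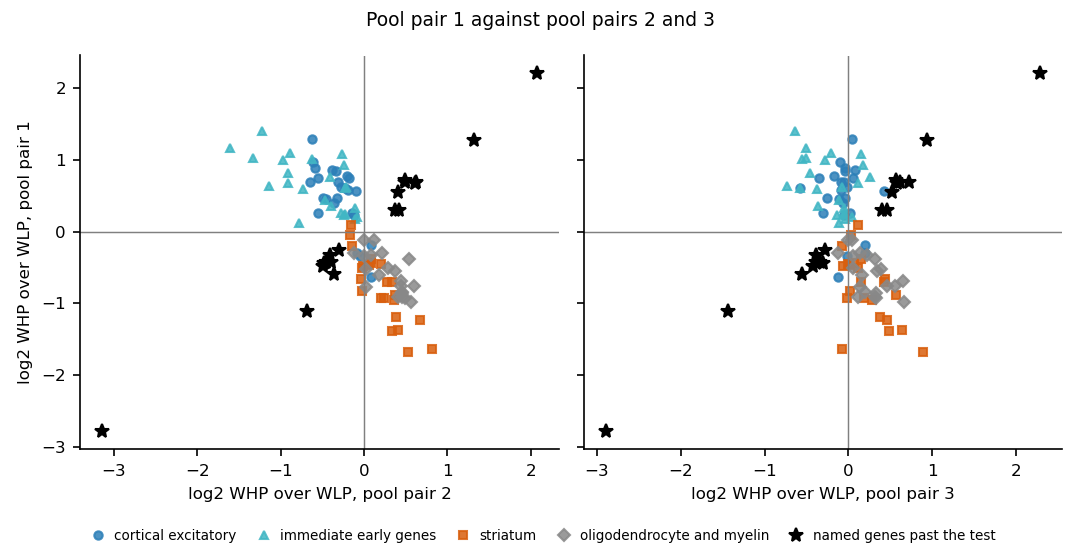
Log2 ratio of WHP over WLP in pool pair 1 (vertical axis) against pair 2 (left) and pair 3 (right) for members of 4 gene lists and for the 18 named genes past the test. Striatum and myelin markers and immediate early genes lie mostly in quadrants of opposite sign, and the 18 named genes lie in quadrants of equal sign, as the rule for naming required.

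Between the strains, 53 of 28751 probes tested passed (0.184%), 32 higher (0.111%) and 21 lower (0.073%) in WHP. Most differences were small: the median size among the 53 was 0.62, and 10 exceeded 1. In 51 of the 53 the 3 WHP pools and the 3 WLP pools did not overlap, against 10.8% of all probes tested, and all 53 kept 1 sign over the 6 arrays. Because the 53 were picked by these same ratios, neither count is separate support for them. At an unadjusted p under 0.05, 2419 probes (8.41%) differed. The last probe inside the threshold had an adjusted p of 0.0471 and the first outside had 0.0512. The count rests on the pairs that share the estimate of spread: without prefrontal pair 1, 2 or 3 it was 30, 19 or 4, and without hippocampus pair 1 or 3 it was 32 or 25. With the prefrontal pairs fitted alone 3 probes passed, those of Tac4, Or5b123b and the transcript CDK109. Of the 53, 21 probes name 19 genes and 32 carry no gene name in the tables used. The 18 genes described below each carry the same sign in all pairs because the rule that names them asks for it.

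**Figure D3:**
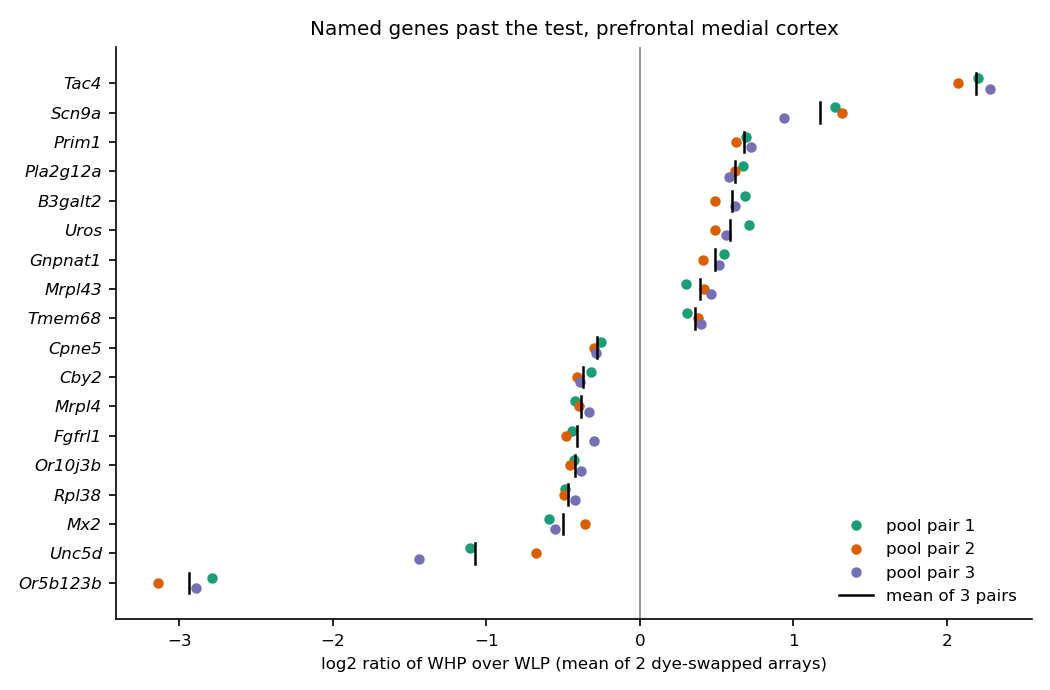
Log2 ratio of WHP over WLP (horizontal axis) in each of the 3 prefrontal pool pairs, coloured by pair, for 18 named genes past the test, with a black line at the mean. Tac4 at 2.19 and Or5b123b at -2.94 lie farthest from 0, and Unc5d has the widest spread between pairs, -1.44 to -0.68.

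Among the genes higher in WHP, Tac4 differed most. Tac4 encodes a tachykinin precursor, a relative of substance P whose peptides act on the same family of receptors. Its level was 1.98, 2.00 and 2.46 (log2 over the array median) in the WHP pools of pairs 1, 2 and 3, and -0.23, -0.075 and 0.17 in the WLP pools. The strains did not overlap, and the ratio was 2.19 ± 0.07, 4.56-fold higher in WHP (limma, adjusted p = 1.65e-05). Its probe lies at chr10:83953767-83953826 on the plus strand of rn4. The pairs gave 2.21, 2.08 and 2.28, and single arrays 1.78 to 2.63. The call held in 27 of 27 alternative settings.

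Scn9a, a pore-forming subunit of a voltage-gated sodium channel known from pain neurons, rose by 1.18 ± 0.09, or 2.26-fold (adjusted p = 0.00382). Its pairs gave 1.27, 1.32 and 0.94, and it passed in 26 of 27 settings. With the scanner's own processed signals its ratio was 1.98. A second Scn9a probe 3.56 kb away on the genome gave -0.066 (adjusted p = 0.961), so the 2 probes of this gene disagree. Prim1, the catalytic subunit of the primase that starts DNA strands, rose by 0.68 ± 0.06 (adjusted p = 0.00508), with 0.69, 0.63 and 0.73 in the pairs. A second Prim1 probe 1.03 kb away rose too, by 0.90 ± 0.07 (adjusted p = 0.00479), with 1.05, 0.69 and 0.94. Prim1 is thus seen by both of its tested probes.

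The other 6 genes described as higher in WHP had smaller differences. Pla2g12a, a secreted phospholipase, rose by 0.62 ± 0.07 (0.67, 0.62 and 0.58 in the pairs, adjusted p = 0.0131). B3galt2, which adds galactose to sugar chains of glycoproteins, rose by 0.60 ± 0.07 (0.69, 0.49 and 0.62, adjusted p = 0.0157). Uros, an enzyme of haem synthesis, rose by 0.59 ± 0.06 (0.71, 0.49 and 0.56, adjusted p = 0.00855). An unnamed probe 4.07 kb from that of Uros rose by 1.19 (adjusted p = 0.00382). With the processed signals Uros gave 1.16. Gnpnat1, an enzyme on the way to the sugar donor for protein glycosylation, rose by 0.49 ± 0.05 (0.55, 0.41 and 0.52, adjusted p = 0.0131). Mrpl43, a protein of the large subunit of the mitochondrial ribosome, rose by 0.39 ± 0.05 (0.30, 0.42 and 0.46, adjusted p = 0.0304). Tmem68, a transmembrane protein, rose by 0.36 ± 0.05 (0.31, 0.38 and 0.40, adjusted p = 0.0471). Of 27 settings, Uros passed in 24, Pla2g12a in 21, Gnpnat1 in 19, B3galt2 in 17, Mrpl43 in 12 and Tmem68 in 6. B3galt2 lost its call without prefrontal pair 1, 2 or 3 (adjusted p = 0.0782, 0.067 and 0.184), and Mrpl43 gave 0.69 with the processed signals.

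Among the genes lower in WHP, Or5b123b stood far from the others. It is an olfactory receptor gene, one of the large family of odorant receptors of the nose. Its level was -0.71, -0.82 and -0.60 in the WHP pools and 2.08, 2.32 and 2.30 in the WLP pools. The ratio was -2.94 ± 0.14, 7.67-fold lower in WHP (adjusted p = 1.36e-04), with -2.79, -3.14 and -2.89 in the pairs and no overlap between strains. It passed in 27 of 27 settings.

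Unc5d, a receptor for the axon guidance cue netrin, fell by 1.07 ± 0.13 (adjusted p = 0.0234). Its pairs gave -1.10, -0.68 and -1.44, and a second Unc5d probe 266 kb away gave -0.070 (adjusted p = 0.814). Mx2, an interferon-induced antiviral GTPase, fell by 0.50 ± 0.06 (-0.59, -0.36 and -0.55, adjusted p = 0.0247), and by 0.93 with the processed signals. Rpl38, a protein of the large cytosolic ribosomal subunit, fell by 0.47 ± 0.04 (-0.49, -0.49 and -0.42, adjusted p = 0.00382). Its 3 pairs lay close together, and it passed in 24 of 27 settings, against 17 for Unc5d and 16 for Mx2.

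Another olfactory receptor gene, Or10j3b, fell by 0.42 ± 0.06 (-0.43, -0.45 and -0.38, adjusted p = 0.0425). Its probe was well above background in WHP on 2 of 6 arrays, so its ratio rests on a dim channel, and the processed signals gave -2.35. Fgfrl1, a fibroblast growth factor receptor without a kinase domain, fell by 0.41 ± 0.05 (-0.44, -0.48 and -0.30, adjusted p = 0.0247). Mrpl4, another mitochondrial ribosomal protein, fell by 0.38 ± 0.05 (-0.42, -0.40 and -0.33, adjusted p = 0.0272). By dye, Mrpl4 gave -0.18 where WHP was labelled with Cy3 and -0.59 where it was labelled with Cy5. Cby2, a chibby family protein best known from testis, fell by 0.37 ± 0.05 (-0.32, -0.41 and -0.39, adjusted p = 0.0247), and by 0.73 with the processed signals. Cpne5, a calcium-dependent membrane-binding copine, fell by 0.28 ± 0.04 (-0.26, -0.30 and -0.28, adjusted p = 0.0286). By dye, Cpne5 gave -0.39 where WHP was labelled with Cy3 and -0.17 where it was labelled with Cy5, and its WHP and WLP pools overlapped in level. Of these 5 genes Or10j3b passed in 10 of 26 settings, Mrpl4 and Cpne5 in 11 of 27, Cby2 in 15 and Fgfrl1 in 16.

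The probes behind the calls are shown because a ratio on such an array is measured through 60 bases of sequence. They are printed as the array files give them, 5′ to 3′, with the coordinates of those files on the rat build rn4. A sequence difference between the strains under a probe and a difference in transcript level cannot be told apart by that probe alone. The probe of Or5b123b lies at chr1:216310307-216310366 on the plus strand, that of Scn9a at chr3:48442413-48442472 on the minus strand and that of Rpl38 at chr3:158404762-158404821 on the plus strand. The first Prim1 probe lies at chr7:1321717-1321776 and that of B3galt2 at chr13:57480376-57480435, both on the plus strand.
Or5b123b: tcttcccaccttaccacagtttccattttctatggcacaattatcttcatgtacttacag
Scn9a: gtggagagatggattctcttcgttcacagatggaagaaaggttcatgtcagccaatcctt
Rpl38: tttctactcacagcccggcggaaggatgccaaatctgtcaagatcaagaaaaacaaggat
Prim1: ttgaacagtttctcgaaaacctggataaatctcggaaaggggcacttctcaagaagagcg
B3galt2: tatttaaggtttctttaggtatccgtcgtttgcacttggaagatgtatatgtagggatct

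The largest rise of all was on a probe that the files describe as CDK109 mRNA and that has no coordinate there. Its level was 9.95, 9.90 and 9.90 in the WHP pools and 6.65, 6.73 and 6.97 in the WLP pools. The ratio was 3.13 ± 0.13, 8.78-fold higher in WHP (adjusted p = 5.67e-05), with 3.30, 3.17 and 2.93 in the pairs. It passed in all 26 settings that measure it. A flanking CDK109 probe, at chrM:1530-1589 on the plus strand of the mitochondrial genome, gave 0.18 (adjusted p = 0.836). The last 33 bases of that flanking probe are the first 33 bases of the raised probe, shown in capitals below, and the ratios differ by 2.96. Another CDK109 probe, starting at base 1289, gave -0.39 (adjusted p = 0.50).
CDK109, flanking probe: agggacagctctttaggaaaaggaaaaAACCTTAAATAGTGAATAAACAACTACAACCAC
CDK109, highest probe: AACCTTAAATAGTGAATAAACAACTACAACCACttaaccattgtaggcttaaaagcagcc

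The same contrast between neighbouring probes was seen in COX2, the mitochondrial gene of subunit 2 of cytochrome c oxidase, the last complex of the respiratory chain. Of the 8 probes annotated to it, 2 rose. The probe at chrM:7366-7425 rose by 0.81 ± 0.09 (1.01, 0.67 and 0.76, adjusted p = 0.0177) and that at chrM:7525-7584 by 0.96 ± 0.08 (1.04, 0.91 and 0.93, adjusted p = 0.00512). The other 6 probes of this transcript lay between -0.41 and -0.17, and none of them passed, with 5 of the 6 at an unadjusted p under 0.05. The probe at chrM:7326-7385 gave -0.17 although its last 20 bases, in capitals, are the first 20 of the probe at 7366, and the ratios of these 2 probes differ by 0.98. Probes of 1 transcript thus gave opposite signs.
COX2, flanking probe: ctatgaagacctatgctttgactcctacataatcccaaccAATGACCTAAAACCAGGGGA
COX2, first raised probe: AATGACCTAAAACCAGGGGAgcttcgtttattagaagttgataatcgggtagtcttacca
COX2, second raised probe: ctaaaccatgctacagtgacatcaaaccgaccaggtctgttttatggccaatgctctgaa

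**Figure D4:**
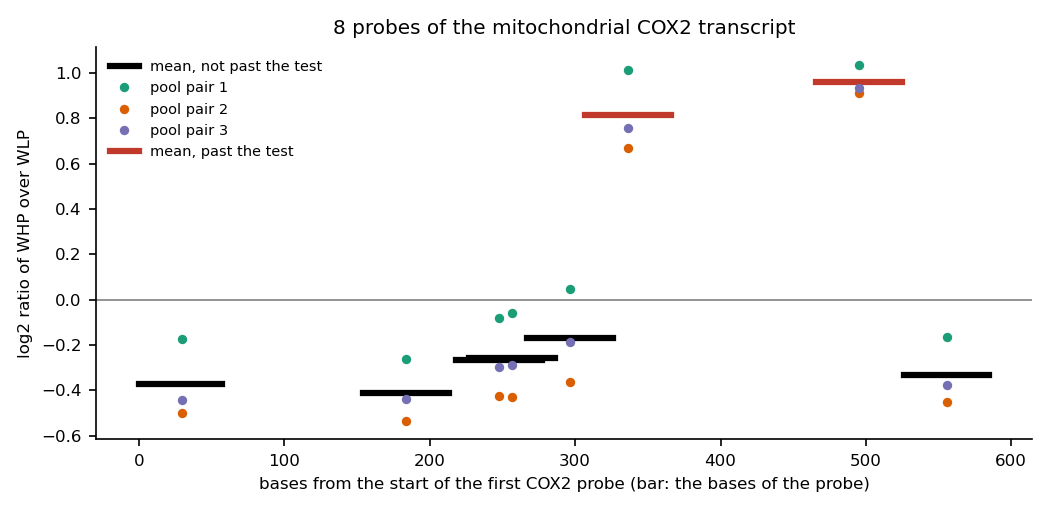
Log2 ratio of WHP over WLP (vertical axis) for the 8 probes annotated to COX2 by their distance in bases from the start of the first probe, with bars for the mean and the span of each probe and points for the 3 pool pairs. The probe at chrM:7537-7595, not annotated to COX2, is not drawn. The 2 raised probes, at 0.81 and 0.96, lie among 6 probes between -0.41 and -0.17.

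Over the whole mitochondrial genome 43 probes were tested and 5 passed, 4 higher and 1 lower, against 0.184% of all probes tested. Since these probes were chosen after their values were seen, and some overlap in sequence, nothing is read from that share. Beside the COX2 probes these were a probe of the control region (D-loop) at chrM:15548-15607, which rose by 0.75 ± 0.09 (adjusted p = 0.0226), and 2 probes of the minus strand. The minus-strand probe at 12310 rose by 0.35 ± 0.05 (adjusted p = 0.0458), and the one at 14429 fell by 0.61 ± 0.06 (adjusted p = 0.00699). The probe at 12310 passed in 7 of 26 settings and gave 0.23 with WHP in Cy3 and 0.48 with WHP in Cy5. The D-loop probe passed in 16 of 26 and the probe at 14429 in 20 of 26, with -0.96 from the processed signals. The COX2 probes at 7366 and 7525 passed in 18 and 22. The uncalled mitochondrial probes lay between -0.41 and 0.58, with a median of -0.14. Mitochondrial probes thus gave values of both signs.

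A stretch of chromosome 15 was chosen after its values were seen, because called probes lie close together there. Of 33 probes tested between 28 and 31 Mb, 5 passed, all higher in WHP, by 0.42 to 0.65, from 28.9 to 30.9 Mb, against 0.111% of all probes tested that were higher. Since the stretch was picked for its calls, nothing is read from that share. They carry no gene name. The uncalled probes lay between -0.17 and 0.35, with a median of 0.043. The files describe 4 of the 33 as T cell receptor sequence, and none of those 4 passed. Outside this stretch, 4 other unnamed probes with coordinates differed by more than 1. They rose by 1.08 at chr1:179413573-179413632, 1.14 at chr4:22048067-22048126 and 1.19 at chr1:193184228-193184287, the neighbour of Uros, and fell by 1.08 at chr14:17172884-17172943, all on the minus strand. They gave 1.21, 1.01, 1.29 and -1.21 in the accumbens, in the same order, and 1.36, 1.67, 1.35 and -0.60 in the hippocampus. An unnamed probe on chromosome 13 was well above background in all 6 WHP channels and in no WLP channel, so its ratio is only a bound and is not given.

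Gene lists were read with 1 probe per gene, the brightest detected, which leaves 12657 genes, of which 19 passed (0.15%), 10 higher (0.079%) and 9 lower (0.0711%). Over all these genes the median ratio was 0.0015 and 6239 were below 0. Tachykinins and their receptors were measured by 6 genes. Tac4 rose, and the others did not pass: Tac1 was at -0.15, Tac3 at -0.19, Tacr1 at -0.18, Tacr2 at -0.29 and Tacr3 at 0.35. Olfactory receptors were mostly undetected, with 206 of 1045 tested. Of those 206, 2 fell, the genes described above, and the median was 0.016.

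Transmitter systems linked to alcohol held no gene that passed. The 25 GABA genes had a median of -0.060, the 37 glutamate receptors and transporters -0.018, the 36 dopamine and other monoamine genes 0.0097 and the 8 opioid genes -0.058. Among the 33 stress and feeding genes, with a median of -0.014, 14 were above and 19 below 0. Their ends were Npy1r, a neuropeptide Y receptor gene, at 0.41 (adjusted p = 0.458) and Gal, the gene of the neuropeptide galanin, at -0.77 (adjusted p = 0.783). The 12 genes of ethanol and aldehyde oxidation had a median of -0.055, and Aldh2, the mitochondrial enzyme that clears acetaldehyde, was at -0.37 (adjusted p = 0.398). The 16 endocannabinoid and adenosine genes lay around 0.00013 and the 28 genes of vesicle release around -0.015.

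Protein synthesis and metabolism gave single genes. Of 85 ribosomal protein genes, Rpl38 fell and no other passed, with a median of -0.037 and 63 below 0. Of 67 mitochondrial ribosomal proteins, Mrpl43 rose and Mrpl4 fell, around a median of 0.044. The 76 genes of the respiratory chain and ATP synthase, nearly all nuclear, had a median of 0.015 and no call. Uros was the only call among 9 haem synthesis genes (median 0.034). Cholesterol synthesis, 22 genes, had a median of -0.079 and no call, with 6 genes lower at an unadjusted p under 0.05, against 4.35% of all genes. Of 22 neurotrophin and growth factor genes, with a median of -0.15, Fgfrl1 fell. Of the 20 interferon response genes tested out of 27, with a median of 0.021, Mx2 fell, and the 30 MHC and antigen presentation genes held no call (median 0.020).

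Markers of cell types held no gene that passed. Astrocyte markers were the most even list: all 20 were below 0, with a median of -0.18 and -0.33, -0.077 and -0.14 in the pairs. Of these 20, 8 were lower at an unadjusted p under 0.05, against 4.35% of all genes (8.79% in either direction). Gfap, the intermediate filament of astrocytes, was at -0.51, the growth factor receptor gene Fgfr3 at -0.35, the water channel Aqp4 at -0.23 and Aldh1l1 at -0.21. The astrocyte median stayed between -0.23 and -0.060 over the alternative settings, and was -0.14 in the accumbens and 0.030 in the hippocampus. The 25 interneuron markers had a median of -0.090, with Dlx1, a transcription factor of interneuron precursors, at -0.43 (-0.51, -0.39 and -0.39, adjusted p = 0.058).

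Blood cell markers went both ways, with 4 above and 5 below 0 and none past the test. Hbb-b1, a beta globin chain of haemoglobin, was at -0.61 ± 0.10 (-0.56, -0.79 and -0.49, adjusted p = 0.0898), and Hbb, another beta globin gene, at -0.62 ± 0.21 (adjusted p = 0.458). Alas2, the haem enzyme of red cell precursors, was at -0.40 (adjusted p = 0.176), and Lcn2, a lipocalin of neutrophils, at the other end of the list, was at 0.36 (adjusted p = 0.657). The 9 blood cell markers had a median of -0.080, the 17 microglia markers -0.078, the 16 endothelial and mural markers -0.083, the 18 thalamus, hypothalamus and septum markers -0.080 and the 17 neuron markers -0.012. The 13 hippocampus markers had a median of 0.00032.

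Several lists had medians near 0 that hide opposite pairs. The 24 immediate early genes, switched on by neuronal activity, had a median of -0.046 but 0.63, -0.44 and -0.12 in pairs 1, 2 and 3, with 0, 24 and 19 genes below 0. The 21 myelin markers were at -0.60, 0.37 and 0.22, the 23 striatum markers at -0.71, 0.21 and 0.15, and the 25 cortical excitatory markers at 0.58, -0.31 and -0.048. Meninges and fibroblast markers, 16 genes, were at -1.06, 0.0095 and 0.91. Lists described above, these among others, split in the same way. Opioid genes were at -0.43, 0.21 and 0.0058, and thalamus, hypothalamus and septum markers at -0.45, 0.22 and -0.019. Interferon response genes were at -0.29, 0.20 and 0.086, and MHC and antigen presentation genes at -0.33, 0.20 and 0.12. Vesicle release genes were at 0.23, -0.11 and -0.081, neuron markers at 0.23, -0.099 and -0.072, and glutamate receptors and transporters at 0.11, -0.14 and -0.057. Tachykinins and their receptors were at -0.33, 0.25 and 0.0058. Ependyma and choroid plexus markers, 12 genes with a median of 0.34, were at -0.69, 1.70 and 0.12. Ribosomal protein genes had 75, 34 and 45 of 85 below 0. In each list given by its pair medians in this paragraph, pair 1 had the opposite sign to pair 2, by little for the meninges, and the mean lies between the pairs. The astrocyte markers above did not split in this way.

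The strain differences in the prefrontal medial cortex were then set beside those in the other areas. Of its 53 called probes, 37 also passed with the same sign in the nucleus accumbens (69.8% of the 53, 44.6% of the 83 called there) and 36 in the hippocampus (67.9% of the 53, 28.8% of the 125 called there). In the accumbens 0.275% of probes tested passed, and in the hippocampus 0.36%. Both other areas called 28 of the 53, and neither called 8. The sign was shared by 53 of 53 with the accumbens and by 52 of 53 with the hippocampus, against 64.5% and 56.6% of all probes tested in both. The 3 areas share 1 estimate of spread. Any contrast with the hippocampus is also a contrast between scan sessions and slides.

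Tac4 was at 1.90 in the accumbens and 1.45 in the hippocampus, Or5b123b at -2.18 and -2.93, and the CDK109 probe at 2.98 and 3.06. Pla2g12a was nearly equal across areas, at 0.62, 0.61 and 0.60. Others were not. B3galt2 was at 0.60 in the prefrontal cortex, 0.13 in the accumbens and -0.043 in the hippocampus. Tmem68 was at 0.36, 0.0081 and 0.0036.

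No difference between areas passed. For prefrontal minus accumbens 0 of 28510 probes passed (0%), with 869 (3.05%) at an unadjusted p under 0.05, and for prefrontal minus hippocampus 0 of 28598 (0%), with 946 (3.31%). Nor did any pass in the alternative settings that were run. Among the named genes with the smallest p for a more positive ratio in the prefrontal cortex than in the accumbens were Foxp1, a transcription factor of cortical and striatal neurons, at 0.56, Cyld, a deubiquitinase, at 0.49, Arpp21, a neuronal phosphoprotein, at 0.73, and B3galt2 at 0.47 ± 0.09. These values are differences of ratios. The ratios of Foxp1, Cyld and Arpp21 were 0.019, 0.19 and -0.060 in the prefrontal cortex and -0.54, -0.30 and -0.79 in the accumbens. In the other direction the difference was -1.06 for Lcat, the enzyme that esterifies cholesterol in lipoproteins, -0.35 for Fbxo2 and -0.46 for Cited2. Their ratios were -0.48, -0.20 and -0.30 in the prefrontal cortex and 0.59, 0.15 and 0.16 in the accumbens. Against the hippocampus, the difference was 0.73 ± 0.10 for Tac4, 0.64 for B3galt2, 0.57 for Rab3c and 0.36 for Tmem68, and -0.65 for Adamts9 and -0.27 for Coro7. The ratio of Rab3c was 0.034 in the prefrontal cortex and -0.54 in the hippocampus. In the same order, Adamts9 was at -0.14 and 0.51, and Coro7 at -0.071 and 0.20. None of these is shown to be particular to an area.

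**Figure D5:**
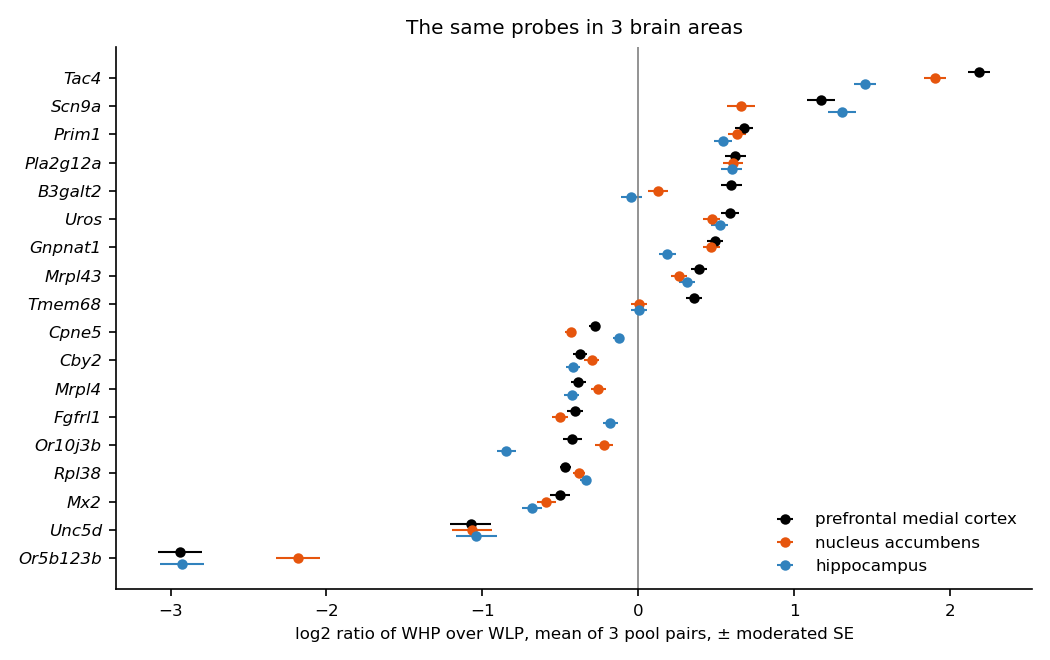
Log2 ratio of WHP over WLP (horizontal axis, mean of 3 pool pairs with the moderated SE) of the 18 named genes in the prefrontal medial cortex, the nucleus accumbens and the hippocampus. Most genes keep their sign in the 3 areas, while B3galt2 and Tmem68 lie near 0 in the accumbens and the hippocampus.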

How the data were processed

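Per the file headers, the deposited scanner output (Agilent Feature Extraction 10.10.1.1) gives spot intensity, foreground and local background, per dye, with no normalization. The authors' deposited table of log2 ratios has an unstated normalization and was used as an alternative. Backgrounds above 2 times the channel median were set to that median. The normexp method of limma 3.58.1 (R 4.3.3; offset 50) corrected the intensities, which were then loess-normalized within arrays, turned to WHP over WLP by the labelled dyes and averaged per pair. The offset pulls dim ratios towards 0. Probes well above background in either strain on at least 4 of 6 arrays were tested with lmFit and eBayes over 9 pool pairs, 1 coefficient per area (6 residual and 2.46 prior degrees of freedom), 2-sided. Scanner files of 45018 spots hold 1639 controls and 41012 probes, of which 21286 were named through RefSeq accessions or symbols. No value column lacked a sample (0). Named genes are up to 15 per direction, past the test with 1 sign in all pairs, by the brightest probe, list members past the test, and for each difference between areas up to 5 per direction by adjusted p. Members of a list that did not pass are named with their values. The CDK109, mitochondrial and chromosome 15 probes were chosen after their values were seen. The members and lists were chosen with earlier results of these data known. On simulated ratios of 28702 probes, 65 of 100 changes of 0.5 and 92 of 100 of 1 were recovered, with 16 false calls. The simulated noise was independent between probes, while marker lists shift together in the real pairs, so these rates need not hold here. Against the processed signals, the deposited table gave r 0.624 and slope 0.328 on the first array of prefrontal pair 1 and r of 0.939 or more on the other prefrontal arrays. On the first array of hippocampus pair 3 it gave r 0.759 and slope 0.517. For some genes the result is not reported here. Each p-value sets a mean ratio, or a difference between area means, against a spread between pool pairs. In the main fit that spread is estimated over all 9 pool pairs, not over the prefrontal pairs alone.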

Additional observations from a re-analysis of the deposited data

Results flagged for a closer look

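The level of ependyma and choroid plexus markers in the WHP pool of pair 2 was 2.29 (log2 over the array median), far from the other 5 prefrontal pools, which lay between -0.23 and 0.28. The gap to the nearest pool was 0.797 of the whole range, above the critical value of 0.625 for 6 samples. This was the only flag among 38 sets examined in this way, which were marker lists over 6 pools and single probes over 6 arrays. Chance alone flags about 1 in 20 sets of independent values. The 2 dye-swapped arrays of a pair are not independent, so that rate is only a rough guide.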

How the results depend on the processing

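Against 53 probes in the prefrontal WHP against WLP comparison, 26 passed with local backgrounds as scanned, 35 with the deposited value table, 14 with 1 probe per gene, 3 with the prefrontal pool pairs alone, 5 with the first scan session alone and 19 with WHP in Cy3 alone. Keeping the first scan session alone leaves out all hippocampus arrays. Leaving out single replicates gave 4 to 62. The replicate block, which pairs areas by replicate number, gave 16. Deviations of same-numbered pairs correlated at -0.37 to 0.16. Same-numbered accumbens and prefrontal pairs lay on the same slide, and the labels leave unsaid if they share rats. The other settings gave 44 to 73. Scaling between arrays (56) was chosen after seeing the data. Over all settings, 455 values of named probes kept their side of the threshold, 212 lost it and 0 reversed, and 407 list medians moved by less than the spread between pairs and 9 by more. Both differences between areas had 0 calls in every setting run. The main limits are 3 pools a strain, striatum markers that differ between the prefrontal pools, and dim probes, whose ratios depend on the background correction.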
